A study of Homo sapiens with 60 samples.

Results

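The 10 genes followed here serve protein folding or the removal of misfolded proteins in the endoplasmic reticulum (ER) of cells. They were measured in HT29, an established line from a human colon tumour, which was kept for 24 h with herbal extracts made with hot water. They are HSPA5, HSP90B1, HYOU1, PDIA4, PDIA6, DNAJB9, DNAJC3, SDF2L1, CALR and HERPUD1, chosen by name as lines of the gene count table. HERPUD1 serves removal and is no chaperone, and the name chaperone and folding genes is used for the 10 together. All 10 were found among its 60675 genes, and all 10 passed the filter on low counts. The extracts were citrus peel (Citri Unshius Pericarpium), cimicifuga (Cimicifugae Rhizoma), bupleurum (Bupleuri Radix), processed aconite root (Aconiti Lateralis Radix Preparata, called aconite) and the herb mixtures Yijung-tang, Banhasasim-tang and Bojungikgi-tang, each at 20, 100 and 500 µg/mL (low, medium and high dose). They were set against vehicle, which is 0.1% DMSO in the sample labels and 2% in the design text. Vehicle and every dose of 6 extracts had 3 libraries (57 libraries in 19 groups), and Bojungikgi-tang had 1 library per dose.

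The ER is where secreted and membrane proteins fold. HSPA5 (BiP) is its HSP70 chaperone and also holds the sensors IRE1, ATF6 and PERK inactive. When unfolded proteins draw HSPA5 away, the sensors start the unfolded protein response, in which ATF6 and XBP1 switch on chaperone genes through ER stress elements in their promoters, while PERK raises the transcription factor ATF4. In the colon this response is best known from mucus-secreting goblet cells, which fold large amounts of mucin.

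The libraries held 10.35 to 40.05 M counts (median 23.83 M). The first part of the sample codes, read here as a library set, separates vehicle from every extract and joins citrus peel with cimicifuga, bupleurum with aconite, and Yijung-tang with Banhasasim-tang. Every sample title names BatchB, for vehicle and extracts alike, and the sets are a reading of the codes only. By this reading a comparison with vehicle is also one between sets, and treatment and set cannot be told apart in it. High against low dose stays within a set. All 10 markers of colon epithelium were detected, CDX1 at no more than 1.71 CPM (counts per M). The 12 markers of other cell types summed to between 5.91 and 15.4 CPM, with ALB at 0 in 57 of the 60 libraries. CD68 (median 7.60 CPM), PECAM1 (1.80) and COL1A1 (1.31) were found in every library. The CD68 median lay above those of the colon markers CEACAM5 (6.21) and CDX2 (5.44). Aconite high 2 and Banhasasim-tang high 2 lay farthest from their group means, by a root mean square of 0.48 and 0.45 log2 CPM over all genes. With bupleurum medium 2 (0.30) and vehicle 1 (0.29) they are the 4 far libraries left out in an alternative, chosen with earlier results known, although Banhasasim-tang high 3 (0.34), aconite high 1 (0.32) and Banhasasim-tang low 2 (0.31) deviated about as much. The median ribosomal protein gene deviated by 0.50 in aconite high 2, 0.40 in Banhasasim-tang high 2, -0.11 in bupleurum medium 2 and 0.21 log2 CPM in vehicle 1. The labels do not say whether the replicates are separate cultures, so the p-values reflect the spread among libraries, and this spread may be technical only. In bulk RNA, fewer cells of a type and less RNA per cell cannot be told apart.

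The promoters are shown first, because the ER stress elements are the letters by which many genes of this kind are known to respond together. RefSeq promoters of GRCh38.p14, from 250 bases before to 50 after each transcription start, were matched for all 10 genes, with a second start for PDIA4 and PDIA6. Both strands were searched for the ER stress element (ERSE, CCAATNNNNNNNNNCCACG), its shorter form ERSE-II (ATTGGNCCACG) and the XBP1 element (UPRE, TGACGTGG). An ERSE or ERSE-II stood in 7 of the 12 promoters, which belong to 7 of the 10 genes, against 0.131% of the 35116 promoters in the table. Because many genes of this kind are known by these elements, the excess is no result of these data. The ERSE was in 0.0769% of all promoters, the ERSE-II in 0.0541% and the UPRE in 0.729%. Capitals mark the fixed letters of each element. The 4 promoters printed whole are those of HSPA5 and HERPUD1, which were called most often, of HSP90B1, with an ERSE on each strand, and of HYOU1, where a UPRE overlaps the first of 2 ERSE-II read on the opposite strand.
HSPA5, chr9:125241294-125241593, minus strand: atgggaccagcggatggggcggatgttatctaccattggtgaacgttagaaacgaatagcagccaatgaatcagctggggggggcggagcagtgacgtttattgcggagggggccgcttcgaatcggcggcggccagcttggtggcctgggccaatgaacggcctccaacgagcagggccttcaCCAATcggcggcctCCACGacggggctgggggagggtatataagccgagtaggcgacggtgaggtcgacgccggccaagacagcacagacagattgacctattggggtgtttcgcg
HERPUD1, chr16:56931892-56932191, plus strand: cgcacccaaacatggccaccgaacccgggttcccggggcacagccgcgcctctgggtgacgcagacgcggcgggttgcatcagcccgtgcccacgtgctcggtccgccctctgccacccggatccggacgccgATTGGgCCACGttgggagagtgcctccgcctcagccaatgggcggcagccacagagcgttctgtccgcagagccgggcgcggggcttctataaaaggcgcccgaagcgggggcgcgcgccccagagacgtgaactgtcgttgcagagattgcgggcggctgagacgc
HSP90B1, chr12:103930160-103930459, plus strand: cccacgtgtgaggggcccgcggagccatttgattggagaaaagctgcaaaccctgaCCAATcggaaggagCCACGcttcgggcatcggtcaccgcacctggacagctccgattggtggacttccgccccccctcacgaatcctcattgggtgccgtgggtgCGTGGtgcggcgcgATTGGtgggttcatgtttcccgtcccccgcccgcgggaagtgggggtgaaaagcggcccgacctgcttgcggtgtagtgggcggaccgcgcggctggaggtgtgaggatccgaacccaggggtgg
HYOU1, chr11:119057156-119057455, minus strand: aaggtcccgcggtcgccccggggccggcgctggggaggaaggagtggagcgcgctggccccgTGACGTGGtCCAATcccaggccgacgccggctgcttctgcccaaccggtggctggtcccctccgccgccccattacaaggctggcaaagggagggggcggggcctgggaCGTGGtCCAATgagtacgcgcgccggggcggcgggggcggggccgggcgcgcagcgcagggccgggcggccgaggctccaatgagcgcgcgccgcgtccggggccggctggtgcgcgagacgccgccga

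For CALR, PDIA6 (second start) and SDF2L1 only the element is shown, read 5′ to 3′ on the strand that carries it, which is the gene's own strand for PDIA6 and the opposite strand for CALR and SDF2L1.
CALR, chr19:12938384-12938402: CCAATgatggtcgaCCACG
PDIA6, chr2:10812853-10812871: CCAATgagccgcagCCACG
SDF2L1, chr22:21642114-21642124: ATTGGtCCACG

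None of the 3 letter patterns was in these windows of DNAJB9, DNAJC3 and PDIA4, which says nothing of the factors that bind there. In HSPA5 the ERSE ended 48 bases before the start, and in HERPUD1 the ERSE-II ended 107 bases before it. A match is a string of letters, not a measured binding site.

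**Figure D1:**
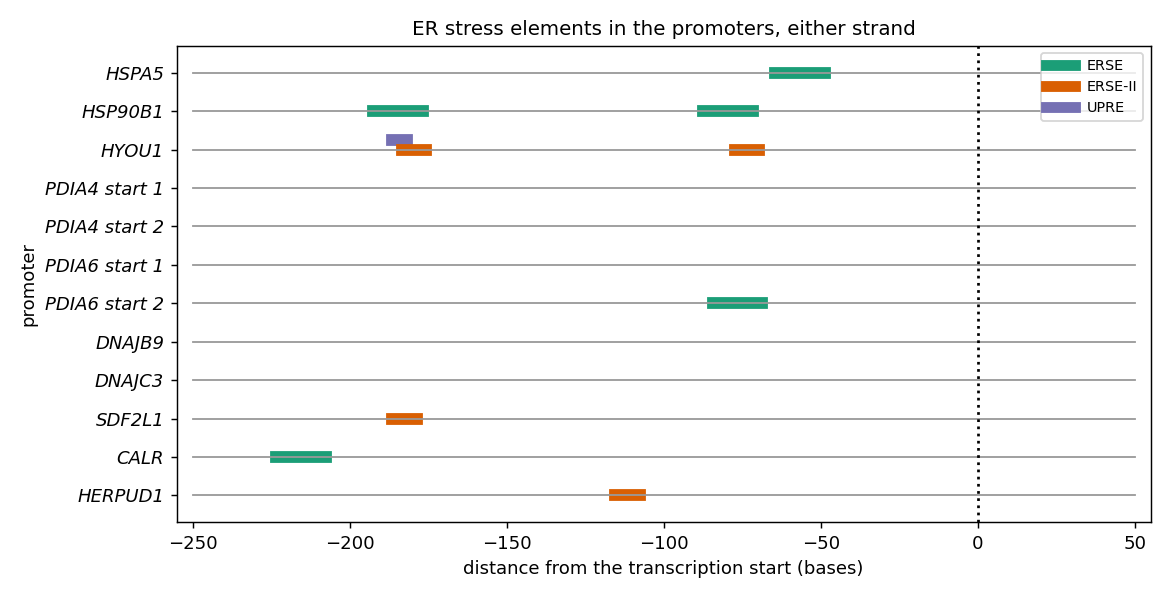
Position of each ERSE, ERSE-II and UPRE along 12 promoters (rows), as distance in bases from the transcription start (dotted line). All elements lie before the RefSeq start of their row, and 7 of the 10 genes have an ERSE or ERSE-II.

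In vehicle cells, levels per length (CPM per kb of exon, mean ± SD, n = 3) covered a wide range. CALR, a lectin chaperone that holds sugar-tagged proteins, was highest at 209 ± 19.3. HSP90B1 (GRP94), the HSP90 of the ER, stood at 130 ± 1.70, PDIA4 at 109 ± 2.66, HSPA5 at 97.6 ± 1.18 and PDIA6 at 85.6 ± 2.10. The lower ranks were HYOU1 at 31.8 ± 1.3, DNAJC3 at 16.0 ± 1.17, SDF2L1 at 14.2 ± 2.96, HERPUD1 at 7.09 ± 0.18 and DNAJB9 at 4.35 ± 0.27. The vehicle libraries of each neighbouring pair in this order did not overlap, except those of DNAJC3 and SDF2L1. Counts per library ran from 120 to 492 for DNAJB9 and from 132 to 504 for SDF2L1, the least certain of the 10, and from 6815 to 24260 for HSP90B1.

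Over the 19 groups the 10 genes moved little. The highest group mean was 1.44 times the lowest for HERPUD1, 1.38 times for DNAJB9, 1.36 times for SDF2L1 and 1.28 times for HSPA5, and between 1.11 and 1.19 times for the other 6. HSPA5 and HERPUD1 rose with aconite at the high dose, and HSPA5 also rose between low and high dose of citrus peel. DNAJC3 was higher in Banhasasim-tang low than in vehicle, and DNAJB9 was higher in aconite high than in bupleurum high. No gene of the 10 fell in any comparison (edgeR quasi-likelihood test, adjusted p under 0.05). None of these calls passed when the fit held just the compared groups, and some were lost without single libraries, as given below. The levels of HSPA5, HERPUD1 and DNAJB9 in every library are plotted by group.

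**Figure D2:**
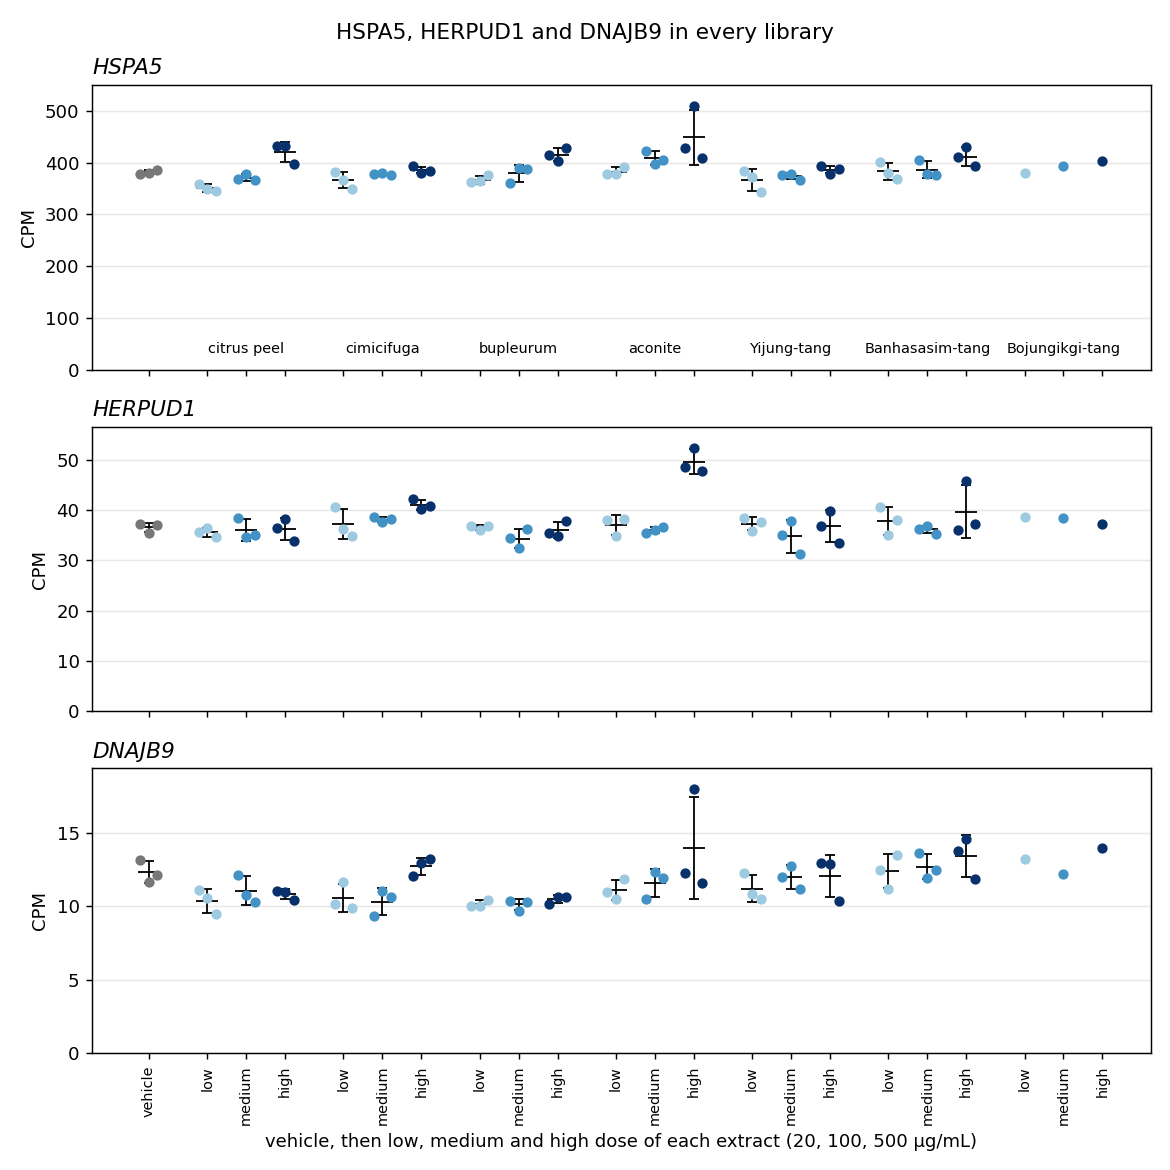
CPM (y axes, from 0) of HSPA5, HERPUD1 and DNAJB9 in each library (points) of vehicle and the low, medium and high dose of 7 extracts (x axis), with mean and SD where a group has 3 libraries. The 3 aconite high libraries of HERPUD1, 47.8 to 52.4 CPM, lie above every other library.

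HSPA5 lies on chromosome 9 (GRCh38 positions 125234853 to 125241330, minus strand). Its level was 429, 509 and 409.5 CPM in the 3 aconite high libraries, against 377, 381 and 386 CPM in vehicle. All aconite high libraries lay above all vehicle libraries, and aconite high 2, far from its group mean, was the highest of the 57. The log2 fold change was 0.23 ± 0.05 (SE), or 17.7% higher (edgeR adjusted p = 0.00138). Without aconite high 2 it was 0.13 (edgeR adjusted p = 0.0495) and without the 4 far libraries 0.12 (edgeR adjusted p = 0.0760), and when the fit held just the compared groups it did not pass (edgeR adjusted p = 0.483).

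Within aconite the HSPA5 level was 377, 379 and 392 CPM at the low dose, 398, 405.5 and 423 CPM at the medium dose and 409.5, 429 and 509 CPM at the high dose. High and low dose did not overlap, with a log2 difference of 0.23 ± 0.05 (edgeR adjusted p = 0.00234), which was 0.13 without aconite high 2 (edgeR adjusted p = 0.0850). Citrus peel gave 397, 432 and 432 CPM of HSPA5 at the high dose, against 345, 349 and 360 CPM at the low dose. These libraries did not overlap either, and the log2 difference was 0.26 ± 0.05, or 19.7% (edgeR adjusted p = 0.0300). The call was lost without any of 5 of the 6 libraries compared, at log2 differences that stayed between 0.24 and 0.30. The 18 libraries of this set split by the RNA gene RN7SL2, at or under 9.90 CPM in 12 and at or over 40.9 CPM in 6, and with a term for that split HSPA5 kept a log2 difference of 0.26 (edgeR adjusted p = 0.0227).

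HSPA5 was the only gene of the 10 whose group means rose from low over medium to high dose in each of the 6 replicated extracts. This order held in all 6 extracts for 0.224% of the 16484 genes tested. At the high dose HSPA5 averaged 420 ± 20.0 CPM in citrus peel, 386 ± 6.46 in cimicifuga, 416 ± 12.7 in bupleurum, 449 ± 53.0 in aconite, 387 ± 7.02 in Yijung-tang and 412 ± 18.6 in Banhasasim-tang, against 381 ± 4.62 in vehicle (SD, n = 3 each). At the low dose every group mean of HSPA5 lay between 351 and 383 CPM, on both sides of vehicle. Bupleurum had 403, 415 and 429 CPM at the high dose and 362, 364 and 376 CPM at the low dose. That log2 difference of 0.18 ± 0.05 did not pass (edgeR adjusted p = 0.265), although the libraries did not overlap.

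HSP90B1 shares the folding of membrane and secreted proteins with HSPA5. It had 586, 596 and 752 CPM in aconite high, against 605, 612 and 621 CPM in vehicle, so aconite high 2 alone stood above vehicle and the log2 fold change of 0.07 did not pass. In citrus peel its level was 624, 638 and 670 CPM at the high dose and 555, 567 and 594 CPM at the low dose, without overlap (log2 difference 0.17 ± 0.06, edgeR adjusted p = 0.530). Without the 4 far libraries, none of which is a citrus peel library, the same difference had an edgeR adjusted p of 0.0123, and the share of all genes called was 0.746%, beside 0.0667% with them. HYOU1 (ORP150), an HSP70-like partner that releases ADP from HSPA5, had 283, 231 and 282 CPM in aconite high and 233, 251 and 251 CPM in vehicle. Here aconite high 2 was the lowest of its group: the log2 fold change was 0.12 ± 0.06 with it (edgeR adjusted p = 0.161) and 0.20 without it (edgeR adjusted p = 0.00345).

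The protein disulfide isomerases form and rearrange disulfide bonds. PDIA4 (ERp72) kept between 322 and 385 CPM over all 57 libraries, the highest at 1.19 times the lowest, which is the smallest such ratio of the 10. It had 356, 370 and 376 CPM at the high dose of citrus peel and 324, 331 and 333 CPM at the low dose, a log2 difference of 0.16 ± 0.05 that did not pass (edgeR adjusted p = 0.289) but did with DESeq2 (adjusted p = 0.0472). PDIA6 (P5), which also binds the sensor IRE1, had 344, 346 and 472 CPM in aconite high, against 341, 355 and 356 CPM in vehicle. The high value was again aconite high 2, and Banhasasim-tang high 2 likewise stood at 428 CPM beside 373 and 342 CPM in its group. No comparison called PDIA6.

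DNAJB9 (ERdj4) is a J-domain partner that hands HSPA5 to the sensor IRE1. Its level was 12.3, 17.9 and 11.6 CPM in aconite high, against 10.1, 10.6 and 10.6 CPM in bupleurum high of the same set. The groups did not overlap, with a log2 fold change of 0.38 ± 0.10 (edgeR adjusted p = 0.0119). Without aconite high 2 the value was 0.19 (edgeR adjusted p = 0.310), and without bupleurum high 1 the adjusted p was 0.0552. Against vehicle, at 11.7, 12.2 and 13.2 CPM, aconite high overlapped (log2 fold change 0.15 ± 0.10, edgeR adjusted p = 0.366). The exons of DNAJB9 overlap PNPLA8 and THAP5 on the other strand, and HSP90B1, HYOU1, PDIA6 and CALR also overlap genes of the other strand. The library kit marks strand, but the strand setting of the counting is not given in the sources used here, so such reads may not be separated.

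DNAJC3 (p58IPK), a J-domain co-chaperone and inhibitor of PERK, was higher than vehicle in all 18 groups by its log2 fold change, but passed in 1. In Banhasasim-tang low it had 99.7, 106.5 and 109.6 CPM, against 82.3, 90.4 and 95.2 CPM in vehicle, a log2 fold change of 0.24 ± 0.07 (edgeR adjusted p = 0.0472). Vehicle 1 held the lowest vehicle value. Without it the value was 0.19 (edgeR adjusted p = 0.381), and without vehicle 2 the adjusted p was 0.0844.

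SDF2L1, a partner of HSPA5 and its J-domain proteins with the shortest exon length of the 10 (1.10 kb), was lower than vehicle in all 18 groups by its log2 fold change and passed in none. Without the filter on low counts it was called lower in 8 of the 12 comparisons of medium and low dose with vehicle, where 2.04% of all tests passed in either direction. These 18 values share the vehicle libraries. The median ribosomal protein gene was also below vehicle in every group except aconite high (0.09) and Banhasasim-tang high (0.03), down to a log2 fold change of -0.27 in citrus peel medium, and its part in the SDF2L1 values was not tested. Vehicle 1 stood at 19.3 CPM beside 14.4 and 13.1 CPM in the other vehicle libraries. Across the extracts SDF2L1 kept at or below 15.5 CPM except for 21.9 CPM in aconite high 2 and 21.7 CPM in Banhasasim-tang high 2. These are 0.65 and 0.61 log2 CPM above their group means, in libraries where the ribosomal protein genes also stood high. The part of those deviations in the SDF2L1 values was not tested.

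CALR had 529, 564 and 514 CPM in aconite high, against 626, 553 and 524 CPM in vehicle. The groups overlapped and the log2 fold change of -0.08 ± 0.06 did not pass (edgeR adjusted p = 0.401). CALR was highest in Banhasasim-tang high, at 584, 657 and 544.5 CPM, against 511, 521 and 521 CPM at its low dose. Those libraries did not overlap, yet the log2 difference of 0.20 ± 0.06 did not pass (edgeR adjusted p = 0.116). Without Banhasasim-tang high 3 it was 0.27 (edgeR adjusted p = 0.0104).

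HERPUD1 (chromosome 16, positions 56932048 to 56944863, plus strand) encodes a membrane protein that organises ER-associated degradation, the export of misfolded proteins to the proteasome. It had 48.5, 52.4 and 47.8 CPM in aconite high, against 37.1, 35.5 and 37.0 CPM in vehicle. Every aconite high library was above every vehicle library, with a log2 fold change of 0.44 ± 0.07, or 35.4% (edgeR adjusted p = 7.02e-06). The value ran from 0.40 to 0.47 when any 1 of the 6 libraries was left out, and each time it passed. When the fit held just the compared groups it did not pass (edgeR adjusted p = 0.0807).

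The rise of HERPUD1 was at the high dose of aconite. The levels were 38.1, 34.8 and 38.2 CPM at the low dose, 35.4, 36.1 and 36.6 CPM at the medium dose and 48.5, 52.4 and 47.8 CPM at the high dose. Low and medium dose overlapped vehicle. High against low dose gave a log2 difference of 0.42 ± 0.07 (edgeR adjusted p = 1.99e-05). Bupleurum high, in the same set, had 35.5, 34.9 and 37.8 CPM, and aconite high was higher by a log2 fold change of 0.46 ± 0.07 (edgeR adjusted p = 3.58e-06). Cimicifuga high came next with 42.2, 40.2 and 40.8 CPM, all above vehicle, at a log2 fold change of 0.17 ± 0.07 that did not pass (edgeR adjusted p = 0.306).

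At the high dose against vehicle, the 10 genes are read beside all 16484 tested. Aconite called 2 of the 10 higher, HSPA5 and HERPUD1, against 8.58% of all genes, and 0 lower, against 7.29%. Every aconite high library lay above every vehicle library for 3 of the 10 (HSPA5, DNAJC3 and HERPUD1), against 10.3% of all genes. DESeq2 also called 2, and 5 had an unadjusted p under 0.05, as did 27.9% of all genes. The median log2 fold change of the 10 was 0.13, beside 0.00 for all genes. The share of 2 in 10 rests on few genes, and it was not tested against the background.

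The other extracts called 0 of the 10 at the high dose, by edgeR and by DESeq2. The genes with an unadjusted p under 0.05 numbered 1 for citrus peel (HSPA5, log2 fold change 0.14), 1 for cimicifuga (HERPUD1), 3 for bupleurum (HSPA5, HYOU1 and DNAJB9), 0 for Yijung-tang and 1 for Banhasasim-tang (HSPA5, 0.11). Over all genes the share at an unadjusted p under 0.05 was 8.68% for citrus peel, 11.8% for cimicifuga, 14.1% for bupleurum, 13.7% for Yijung-tang and 12.9% for Banhasasim-tang, so these counts are not read as results. The share of all genes called was 0.0243% for citrus peel, 1.33% for cimicifuga, 1.52% for bupleurum, 1.14% for Yijung-tang and 1.21% for Banhasasim-tang. At medium and low dose, 1 of 120 tests passed, DNAJC3 in Banhasasim-tang low, where 1.39% of all genes were called higher. Pooled over these 12 comparisons, 1.39% of all tests passed in either direction. DESeq2 also called 1 of the 120, and 20 had an unadjusted p under 0.05, beside 14.2% of the tests over all genes. All 18 comparisons share the same 3 vehicle libraries.

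**Figure D3:**
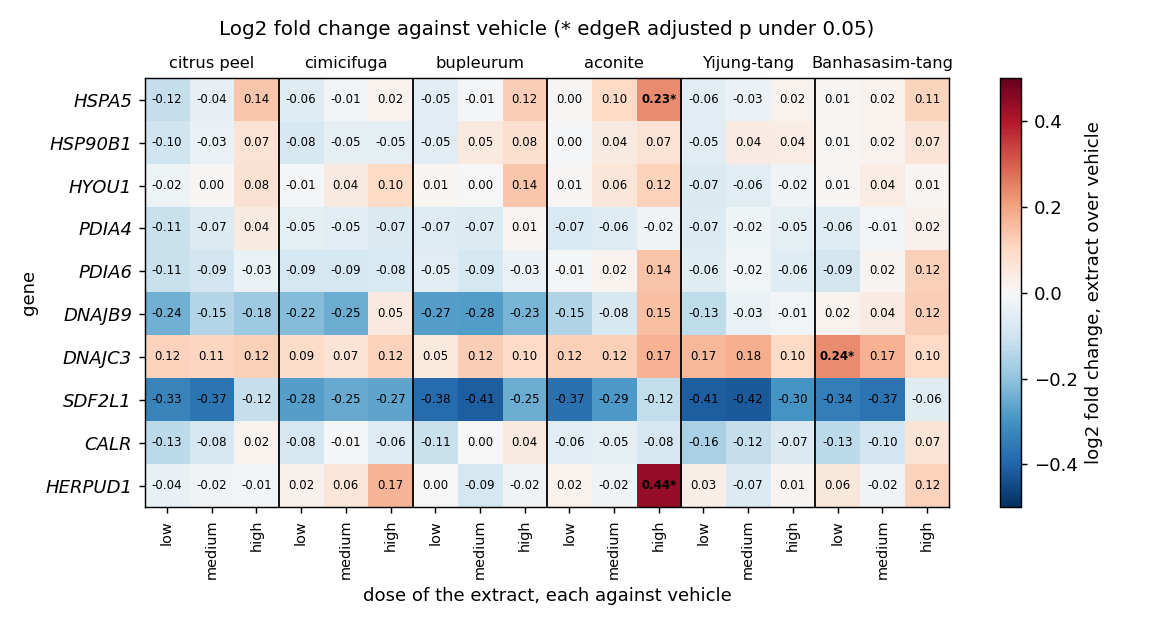
Log2 fold change over vehicle (colour and printed value) of the 10 genes (rows) at low, medium and high dose of 6 extracts (columns). Asterisks mark edgeR adjusted p under 0.05: HSPA5 and HERPUD1 in aconite high and DNAJC3 in Banhasasim-tang low.

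High against low dose leaves out vehicle and stays within a library set. Of 60 differences (10 genes in 6 extracts), 54 were above 0, which is 90%, beside 49.8% of the differences over all genes. HSPA5, HSP90B1, HYOU1, PDIA6, DNAJB9 and SDF2L1 were higher at the high dose in all 6 extracts, as were 7.24% of all genes, and none of the 10 was lower in all 6, as were 7.34% of all genes. Most of these differences were small and did not pass. The 6 values below 0 were those of DNAJC3 in Banhasasim-tang (-0.14) and Yijung-tang (-0.07), of HERPUD1 in bupleurum and Yijung-tang (both -0.02), of CALR in aconite (-0.03) and of PDIA4 in cimicifuga (-0.02). Of 40 ribosomal protein genes the same difference was above 0 in 40 for aconite (median log2 difference 0.25), 40 for Banhasasim-tang (0.30) and 38 for Yijung-tang (0.10). In the other extracts it was above 0 in 23 for citrus peel (median 0.01), 19 for cimicifuga (-0.00) and 16 for bupleurum (-0.02). Their part in the signs of the 10 genes was not tested.

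Citrus peel called 1 of the 10 between high and low dose (HSPA5), where 0.0121% of all genes were called higher. In 6 of the 10 every high dose library lay above every low dose library, against 7.32% of all genes. These were HSPA5, HSP90B1, HYOU1, PDIA4, PDIA6 and CALR. Aconite called 2 (HSPA5 and HERPUD1) where 5.81% of all genes were higher, and 3 lay apart without overlap, against 9.29%. Without aconite high 1, or without aconite high 3, PDIA6 and DNAJB9 passed as well, making 4, while the share of all genes called was 18.2% and 16.2%, beside 10.8% with all libraries. Without aconite high 2 the log2 difference of PDIA6 was -0.01 and that of DNAJB9 was 0.11.

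Bupleurum called 0 between high and low dose by edgeR and by DESeq2, where 0.297% of all genes were called. Unadjusted p values under 0.05 numbered 4, beside 4.37% of all genes, and 5 genes lay above without overlap, against 7.23%. Without the 4 far libraries, 1 of which is bupleurum medium 2, HSPA5 passed (log2 difference 0.18, edgeR adjusted p = 0.00854), with 0.77% of all genes called. Cimicifuga called 0 (0.904% of all genes), with 2 at an unadjusted p under 0.05 (6.69% of all genes), 0 by DESeq2 and 2 above without overlap (8.03%). Yijung-tang called 0 (0.103%), with 0 at an unadjusted p under 0.05 (5.82%), 0 by DESeq2 and 1 above without overlap (8.13%). Banhasasim-tang called 0 (0.231%), with 2 at an unadjusted p under 0.05 (20.6%), 0 by DESeq2 and 3 above without overlap (7.19%). Without Banhasasim-tang high 3, PDIA6 and CALR passed there, as did 18.1% of all genes.

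**Figure D4:**
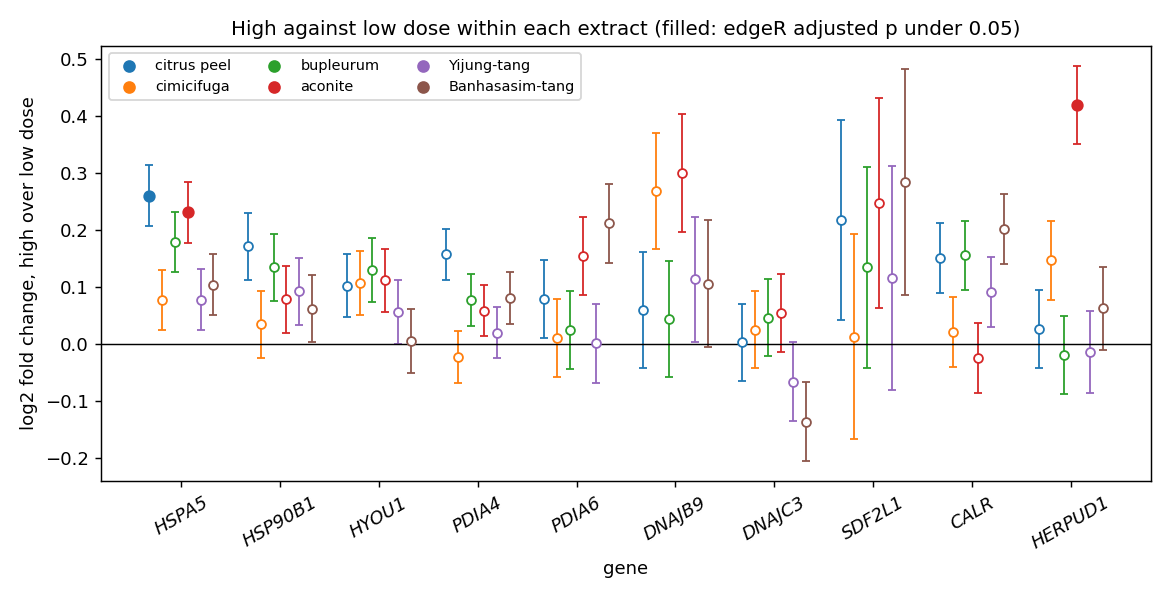
Log2 difference of high over low dose (y axis, point ± SE) for the 10 genes (x axis) in 6 extracts (colours). Filled points passed (edgeR adjusted p under 0.05): HSPA5 in citrus peel and aconite, and HERPUD1 in aconite.

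Extracts of the same set were compared at the high dose. Aconite over bupleurum called DNAJB9 and HERPUD1 higher, 2 of 10 against 5.91% of all genes, and 0 lower, against 3.95%. DNAJB9, DNAJC3 and HERPUD1 lay higher without overlap, 3 of 10 against 10.4%. CALR was lower in every aconite high library than in every bupleurum high library, at a log2 difference of -0.13, 1 of 10 against 10.6%. It passed without the 4 far libraries (-0.17, edgeR adjusted p = 0.00911), as did HSP90B1 (-0.14, edgeR adjusted p = 0.0249). Without aconite high 3, HSPA5 and PDIA6 passed as well, making 4, while 16.3% of all genes were called, beside 9.86% with all libraries. Cimicifuga over citrus peel called 0 by edgeR and DESeq2, where 0.886% of all genes were called and 4 of the 10 had an unadjusted p under 0.05, beside 6.23% of all genes. HSPA5, HSP90B1, PDIA4, PDIA6 and CALR lay lower without overlap, 5 of 10 against 8.37%, while DNAJB9 and HERPUD1 lay higher without overlap, 2 of 10 against 8.21%. Banhasasim-tang over Yijung-tang called 0 by both tools, where 0.346% of all genes were called and 2 of the 10 had an unadjusted p under 0.05, beside 11.6% of all genes. Without Banhasasim-tang high 3, PDIA6 passed there, as did 2.63% of all genes.

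Whether the effect of dose differed was tested directly. HERPUD1 changed by 0.44 ± 0.10 more between low and high dose of aconite than of bupleurum on the log2 scale (edgeR adjusted p = 0.00550), 1 call of 10 against 1.01% of all genes higher. For HSPA5 the same difference was 0.05, with an interval of 2 SE from -0.10 to 0.20, so the rise in aconite and the values in bupleurum were not told apart. The dose effect of HSPA5 in cimicifuga minus that in citrus peel was -0.18, with an interval of 2 SE from -0.33 to -0.03 (edgeR adjusted p = 0.945). There 0 of the 10 were called by edgeR and DESeq2, 2 had an unadjusted p under 0.05, beside 4.23% of all genes, and 0.115% of all genes were called. Banhasasim-tang minus Yijung-tang called 0 of the 10 by both tools, with 1 at an unadjusted p under 0.05, beside 6.44% of all genes, and 0 of all genes (0%).

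Other genes of the ER and of the unfolded protein response were read from lists chosen with earlier results of these data known. Their counts in aconite high against vehicle stand beside the 8.58% of all genes called higher and 7.29% called lower there, and a share near these is no result about a list. The list of other folding genes had 6 of 30 higher and 2 lower, at a median log2 fold change of 0.11. DNAJC10, a reductase that helps misfolded proteins leave the ER, rose by 0.35 ± 0.06 (log2), FKBP10, a prolyl isomerase, by 0.25 ± 0.06, and FKBP11 fell by 0.29 ± 0.07. The other gene called lower, CRELD2, named after its values were seen, had a log2 fold change of -0.35 ± 0.11. Genes of ER-associated degradation were higher in 2 of 24 (UBE2J1 and DERL1, both by 0.19), close to the share of all genes, with a median of 0.04. Genes of translocation and glycosylation were higher in 7 of 30, with a median of 0.14, among them SSR1 (0.26 ± 0.05), SRP72 (0.18 ± 0.05) and SEC61A1 (0.16 ± 0.04), the pore through which proteins enter the ER. Some were called higher than the shared vehicle in other groups too. UBE2J1 was called in bupleurum low and medium (both 0.19), aconite low (0.17) and medium (0.22), Yijung-tang low (0.18) and Banhasasim-tang medium (0.19). DNAJC10 was called in aconite medium (0.21) and in Yijung-tang and Banhasasim-tang low and medium (0.22 to 0.28). SSR1 was called in Yijung-tang medium (0.17) and every dose of Banhasasim-tang (0.16 to 0.19). The share of all genes called higher in these other groups ran from 0.164% in bupleurum medium to 2.47% in aconite medium.

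Of the stress sensors and their factors 1 of 10 passed in aconite high against vehicle, close to the share of all genes. It was XBP1, which was 247 CPM in aconite high and 188 CPM in vehicle (log2 fold change 0.39 ± 0.07, edgeR adjusted p = 8.99e-05). The list of the PERK and ATF4 branch was higher in 10 of 12, with a median of 1.10, beside 2 of 10 and 0.13 for the chaperone and folding genes. The name is that of the list, and whether PERK or another input raised these genes was not tested. ASNS, which makes asparagine, averaged 244 CPM in aconite high and 57.7 CPM in vehicle (log2 fold change 2.08 ± 0.09). DDIT4, an inhibitor of mTORC1, averaged 72.5 CPM in aconite high and 20.4 CPM in vehicle (1.83 ± 0.08). CHAC1, which breaks down glutathione, averaged 20.7 CPM in aconite high and 2.67 CPM in vehicle (2.98 ± 0.15). The members of this branch that did not pass were CEBPB (0.38 ± 0.15, edgeR adjusted p = 0.0697) and ERO1A (0.11 ± 0.06, edgeR adjusted p = 0.238). Of the 12 markers of other cell types 3 were tested here, and CD68 was higher, at 11.1 CPM in aconite high and 7.44 CPM in vehicle (0.57 ± 0.14, edgeR adjusted p = 0.00398). Of the 10 colon epithelium markers 3 were higher, CEACAM5 (0.71 ± 0.12), CDX2 (0.40 ± 0.11) and KRT20 (0.26 ± 0.07), and 1 was lower, VIL1 (-0.21 ± 0.04). Of 40 ribosomal protein genes 1 was higher, RPL4 (0.23 ± 0.08), at a median of 0.09. CDX2 was named after its values were seen. The part of these markers and ribosomal genes in the results was not tested. ERO1A, an oxidase that serves the disulfide isomerases, stands in both this list and that of other folding genes.

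**Figure D5:**
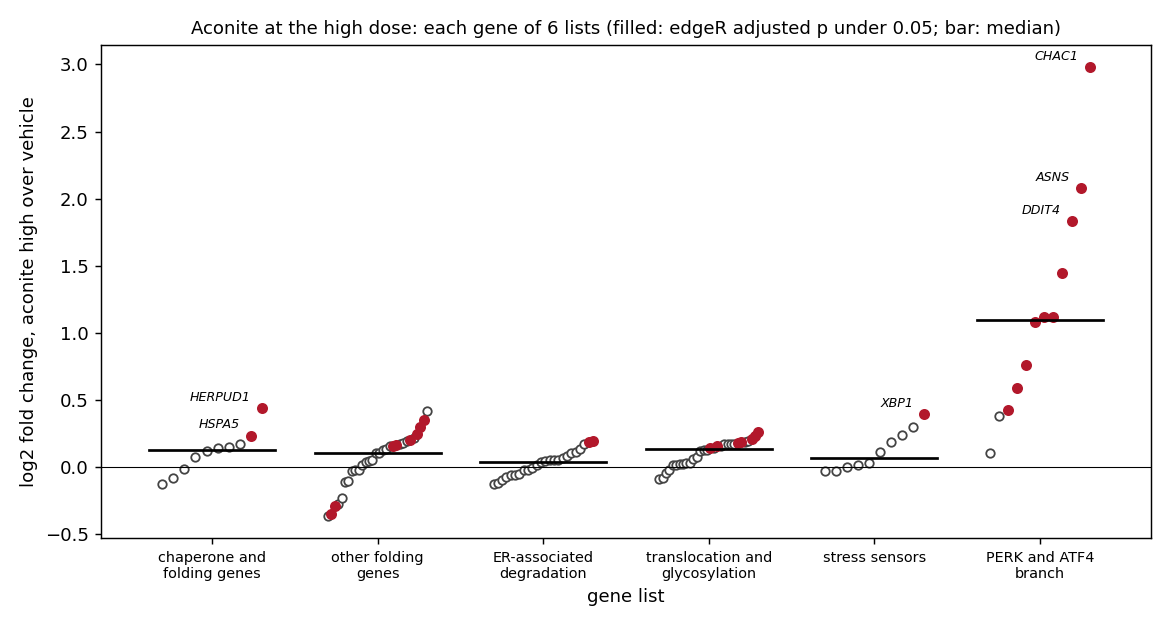
Log2 fold change of aconite high over vehicle (y axis) for each gene (point) of 6 lists (x axis), filled where edgeR adjusted p is under 0.05, with the list median as a bar. The median is 0.13 for the 10 chaperone and folding genes and 1.10 for the PERK and ATF4 branch.

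Aconite high against low dose, within its set, also called list genes higher, among them XBP1 (0.42 ± 0.07), ASNS (2.02 ± 0.09) and SSR1 (0.19 ± 0.05). VCP was lower there (-0.14 ± 0.05). Aconite over bupleurum at the high dose called XBP1 (0.38 ± 0.07) and ASNS (2.07 ± 0.09). The dose effect of aconite minus that of bupleurum called XBP1 (0.40 ± 0.10, edgeR adjusted p = 0.0216) and ASNS (2.02 ± 0.12). Of all genes 5.81%, 5.91% and 1.01% were called higher there. In the other comparisons the lists had few calls. Of 30 translocation and glycosylation genes, STT3B, SSR1 and TRAM1 were higher than vehicle in Yijung-tang medium, beside 0.655% of all genes. The same 3 passed in Banhasasim-tang medium, beside 1.39%, and SSR1 and TRAM1 in Banhasasim-tang high, beside 0.807%. Of 30 other folding genes, DNAJC10 and ERO1A were higher in Banhasasim-tang low and medium, beside 1.39% in each. DNAJC1 was lower in the medium group, beside 1.72%. Cimicifuga high against vehicle had 2 of 12 genes of the PERK and ATF4 branch higher, CHAC1 (0.83 ± 0.16) and ASNS (0.41 ± 0.09), beside 0 of the 10 chaperone and folding genes and 1.33% of all genes in either direction. Citrus peel high against low dose had 0 of 12 in that branch by edgeR, at a median of -0.03, beside 1 of 10 and a median of 0.13 for the chaperone and folding genes. Whether the lists differ was not tested.

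Over the 18 extract groups, each taken as its difference from the mean of its set, 40 of 45 pairs of the 10 genes had a positive Pearson correlation of group mean log2 CPM, with a median r of 0.58. The highest was 0.89, between HSPA5 and SDF2L1, and the lowest -0.44, between DNAJC3 and CALR. HERPUD1 had r = 0.81 with DNAJB9 and -0.04 with CALR. The groups share library sets and scaling, and the far libraries enter 3 of them, so these are descriptions only. Of 12055 genes, those with a pattern most like the mean of the 10 were CDCA5 (r = 0.95), AATF (0.94), SERPINH1 (0.94), MANF (0.93) and POLD2 (0.93), and the least like were FAM131B (-0.95), COLCA1 (-0.93) and TMC5 (-0.93).

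Bojungikgi-tang, with 1 library per dose, allows no test. HSPA5 stood at 381, 393 and 403 CPM at low, medium and high dose, HERPUD1 at 38.7, 38.4 and 37.1 CPM and DNAJB9 at 13.2, 12.2 and 14.0 CPM. At the high dose the log2 ratio of CPM + 1 to the vehicle mean was 0.08 for HSPA5 and 0.02 for HERPUD1. DNAJC3 was highest at 0.33 (medium dose) and SDF2L1 lowest at -0.44 (medium and high dose). None of the 10 reached 0.5 in either direction, against 1.37% of 10702 genes at the high dose, 1.86% at the medium dose and 0.804% at the low dose.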

How the data were processed

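Per the labels' protocols, libraries were made from 1 µg of RNA (RIN above 7) with a directional MGIEasy kit and read as paired ends of 100 bases. Per the submitters' processing notes, the genome was GRCh38 and the tools were RSEM 1.3.3, STAR 2.7.3a, FastQC 0.11.9 and Trim Galore 0.6.5. The sources used here give neither the annotation version nor the strand setting. The authors deposited expected counts per gene, which were rounded (8.68% of the values were not whole). Of 270 columns, 210 were not used.

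All 57 replicated libraries entered 1 edgeR 4.0.16 quasi-likelihood fit (R 4.3.3) with TMM scaling and filterByExpr, which kept 16484 genes. P-values were adjusted by Benjamini-Hochberg over all genes of a comparison, with a threshold of 0.05. CPM are on TMM-scaled totals, and errors of log2 values are SE. Total counts limit precision to counting error and the spread between libraries (common biological coefficient of variation 8.04%). Exon lengths and gene positions come from GENCODE 29 on GRCh38, and promoter windows from RefSeq. GENCODE 29 starts the gene HSP90B1 at position 103930107, upstream of both of its ERSE matches.

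The 10 genes, the other lists and the alternatives were chosen with earlier results of these data known. All 10 are named, with up to 3 genes per other list with the smallest adjusted p among those passing, and the 5 genes most and 3 least like the mean of the 10. Alternatives were median-of-ratios scaling, no filter, DESeq2 1.42.0, only the compared groups, a replicate block, the fit without 4 far libraries, a term for the RN7SL2 split (above or below 20 CPM) and leaving out each library. The RN7SL2 split was read from these data, and the labels name no such batch.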

Additional observations from a re-analysis of the deposited data

Results flagged for a closer look

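The dose effect of HERPUD1 differed between the extracts of 1 library set. High minus low dose was 0.44 ± 0.10 (SE, log2) larger in aconite than in bupleurum, by an interaction term in the fit across all genes (edgeR adjusted p = 0.00550). HERPUD1 averaged 49.5 CPM at the high dose and 37.0 CPM at the low dose of aconite, and 36.0 CPM at the high dose and 36.5 CPM at the low dose of bupleurum (n = 3 each). When the fit held just the compared groups, the value was 0.43 (edgeR adjusted p = 0.0630), and without the 4 far libraries it was 0.40 (edgeR adjusted p = 0.00168).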

How the results depend on the processing

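No called difference of the 10 genes turned its direction under 7 other settings or 39 refits without 1 library, while 64 uncalled differences changed sign in at least 1. When the fit held just the compared groups, the number of the 10 genes called was 0 for aconite high against vehicle, citrus peel high against low, aconite high against low, aconite against bupleurum at the high dose, the dose effect of aconite minus bupleurum and the 12 lower-dose comparisons with vehicle, but 1 for bupleurum high against low. The share of all genes called there was 1.1% for aconite high against vehicle (15.9% in the fit of all groups), 0.601% for aconite high against low (10.8%), 0.679% for aconite against bupleurum (9.86%), 0.516% for their dose effects (1.8%), 0.0121% for citrus peel high against low (0.0667%), 0.582% for bupleurum high against low (0.297%) and 0.544% for the lower doses (1.39%). Without the filter on low counts it was 0 for citrus peel high against low and 8 for the lower doses, all of them SDF2L1, lower than vehicle, with 0.217% and 2.04% of all genes called. DESeq2 called 2 for citrus peel high against low, with 0.268% of all genes. For aconite high against low, the 2 calls of the main fit became 3 with DESeq2 (13.7% of all genes) and 3 with median-of-ratios scaling (11.2%). They were also 3 there without the 4 far libraries (12.7%). Without the 4 far libraries the counts were 3 for citrus peel and 1 for bupleurum (high against low), 3 for the dose effect of aconite minus bupleurum (HERPUD1 higher, HSP90B1 and CALR lower) and 0 for the lower doses, with 0.746%, 0.77%, 3.56% and 1.8% of all genes called. The cause of these shifts was not tested.

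Leaving out 1 library at a time gave 2 to 3 calls for aconite high against vehicle, 0 to 1 for citrus peel high against low, 2 to 4 for aconite high against low, 0 to 2 for Banhasasim-tang high against low, 1 to 4 for aconite against bupleurum at the high dose, 0 to 1 for Banhasasim-tang against Yijung-tang at the high dose and 0 to 1 for the lower doses. Over the same refits the share of all genes called ran from 11% to 18.2% for aconite high against vehicle, 6.52% to 18.2% for aconite high against low, 5.41% to 18.7% for aconite against bupleurum, 0% to 18.1% for Banhasasim-tang high against low and 0.378% to 2.18% for the lower doses. For citrus peel high against low this share ran from 0.0121% to 0.0667%, and for Banhasasim-tang against Yijung-tang from 0.206% to 2.63%. With the replicate block the calls numbered 3 for aconite high against low (DNAJB9 at an edgeR adjusted p of 0.0493), with 11.9% of all genes called. For aconite high against vehicle they numbered 2, with 16.2% of all genes called. Same-numbered replicates did not deviate together (no comparison had every correlation over 0.1). Counts as low as 120 per library limit DNAJB9.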
